A study of Homo sapiens with 12 samples.

Results

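Adding multi-mutant NFATC1 to prostate cancer cells that stably overexpress PIM1 was examined in 4 samples of a 12-sample series: 2 samples labelled PIM1 + MM and 2 labelled PIM1. The 4 samples were chosen by their labels alone. All came from PC-3, an established androgen-independent line from a human prostate adenocarcinoma. Gene lists used below were chosen with earlier results of these data known, so their shares are description and not a test. The PIM1 group was a G418-selected pool of PC-3 cells carrying a pcDNA3.1 vector for PIM1 together with a Td-Tomato marker plasmid. The PIM1 + MM group was the same pool after transient transfection with a vector for multi-mutant (MM) NFATC1. No transient transfection is named for the PIM1 group, so the act of transfection and the mutant protein cannot be told apart in this comparison. The other groups used here were control (the empty-vector pool) and WT (that pool transfected with wild-type NFATC1), while MM and PIM1 + WT levels are given beside named genes. The methods place RNA extraction on the day after transfection and the results text names a later time, and whether the 2 samples of a group came from separate transfections is not given in the sources used here. The p-values therefore measure only the spread between replicate samples, and the fit pools this spread over all 12 samples, not only the 4 compared.

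NFATC1 is a transcription factor that the phosphatase calcineurin, switched on by calcium, releases into the nucleus, where it binds DNA through a GGAAA core, often beside AP-1 proteins. PIM1 is a constitutively active serine/threonine kinase that phosphorylates NFATC1. In prostate cancer cells both proteins are known for roles in migration and invasion. The study asked which genes depend on PIM1 sites in NFATC1, and the comparison described here asks which genes differed when NFATC1 without those sites was added to cells with stable PIM1.

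For the mutant the study names 10 residues, 7 serines and 3 threonines, changed to alanine with 5 primer pairs. The forward primers are shown because they define the protein that was added. Each is written 5′ to 3′, original first, with capitals at the bases that differ between the original and the mutant primer. Residues are numbered in the protein, and some of the changed bases belong to a restriction site added for screening. In the Ser151 + Ser153 + Thr154 pair as printed, the last capital turns a further threonine codon (acc) into an alanine codon (gcc). That residue is not among those the study names as mutated.

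Ser151 + Ser153 + Thr154 original: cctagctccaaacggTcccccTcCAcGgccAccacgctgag

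Ser151 + Ser153 + Thr154 mutant: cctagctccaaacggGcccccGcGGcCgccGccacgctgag

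Ser245 original: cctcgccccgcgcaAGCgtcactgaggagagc

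Ser245 mutant: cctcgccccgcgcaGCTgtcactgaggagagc

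Ser256 + Ser257 original: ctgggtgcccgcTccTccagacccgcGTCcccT

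Ser256 + Ser257 mutant: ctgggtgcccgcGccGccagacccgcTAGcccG

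Ser269 original: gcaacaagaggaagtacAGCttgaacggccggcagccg

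Ser269 mutant: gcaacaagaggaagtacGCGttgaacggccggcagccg

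Ser335 + Thr338 + Thr339 original: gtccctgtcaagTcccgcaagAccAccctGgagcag

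Ser335 + Thr338 + Thr339 mutant: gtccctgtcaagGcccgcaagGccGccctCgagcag

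RNA was labelled with Cy3 or Cy5 and hybridized to 6 arrays on 2 slides, 1 sample of each dye per array. PIM1, MM and PIM1 + MM were all labelled with Cy5, so the main comparison lay within 1 dye. Control, WT and PIM1 + WT were labelled with Cy3. PIM1 shared its arrays with control, and PIM1 + MM shared its arrays with PIM1 + WT. The 2 groups compared were thus never on the same array, and group and array cannot be told apart. With so few arrays, their number bounds how precise any value is. Levels below are log2 signals, quantile normalized over the 12 channels, and levels of different genes or dyes are not compared. Of the spots, 56.9% to 65.2% were well above background in the 4 samples compared, and none was saturated. Over all genes the replicates correlated at r = 0.9884 in PIM1 and 0.9956 in PIM1 + MM, against 0.9976 or more in WT, MM and PIM1 + WT. Control, on the same arrays as PIM1, had r = 0.9906, and the deviations of the first control and first PIM1 samples from their group means correlated at r = 0.834 across genes, which are not independent replicates.

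Of the 25473 genes tested, 19 were called (0.0746%), which means a Benjamini-Hochberg adjusted p below 0.05 in limma and a log2 difference of at least 1 between PIM1 + MM and PIM1. Among these 15 were higher (0.0589%) and 4 lower (0.0157%) in PIM1 + MM cells. By direction alone 46.8% of all genes were above 0. A further, weaker rule, the adjusted p alone, was passed by 3149 genes (12.4%), with 1324 higher (5.2%) and 1825 lower (7.16%). These counts rest on the spread pooled over 12 samples. The median replicate SD was 0.0884 in PIM1 and 0.0722 in PIM1 + MM, against 0.0373 in WT and 0.0446 in PIM1 + WT. With only the 4 samples compared in the fit, 2 genes, NFATC1 and H3C15, were called and 2 passed the adjusted p. With channels scaled to a common median in place of quantile normalization (median centring), only NFATC1 was called. The median difference over all genes was -0.01 and the median absolute difference 0.127, so that most of these differences were small. The called genes were NFATC1 itself, a histone gene, 6 small noncoding RNAs, a few coding genes and 4 transcripts without a matched symbol. Many further genes differed by 1 or more without passing the test, namely 146 higher and 16 lower. For 105 of the 146, a probe was at least 1 log2 unit apart, in the same direction, in both channels of the 2 control/PIM1 arrays.

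NFATC1 had the largest difference among the 19 called genes, and the change lay in 1 of its 2 probes. On probe A_24_P258846 the log2 signal was 11.98 and 11.92 in PIM1 + MM and 6.58 and 6.19 in PIM1. In PIM1 this probe was not well above background on either array, so the rise to PIM1 + MM was at least 41.9-fold (n = 2 per group, limma adjusted p = 6.94e-08 over single probes). On probe A_23_P300150 the levels were 7.31 and 7.37 in PIM1 + MM and 7.46 and 7.42 in PIM1, a difference of -0.10 (limma adjusted p = 0.299 over single probes). The median of both probes gave 2.73 ± 0.07 (SE, limma adjusted p = 9.32e-07) for the gene, a value that includes the probe at background in PIM1. Where each probe lies relative to the transfected sequence was not analysed here.

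The other samples show how the first of these probes followed the labels. It read 11.37 and 11.22 in MM cells, close to the PIM1 + MM level. It read 7.72 and 7.82 in WT cells and 7.94 and 8.01 in PIM1 + WT cells, and 6.87 in both control samples. WT thus stood above control on this probe, both in Cy3 (WT minus control 0.90 ± 0.12, SE, limma adjusted p = 0.0273 over single probes), and WT and mutant groups were read in different dyes and are not ranked. On the second probe the 3 groups of the control line read between 8.25 and 8.40 and the 3 groups of the PIM1 line between 7.17 and 7.46.

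**Figure D1:**
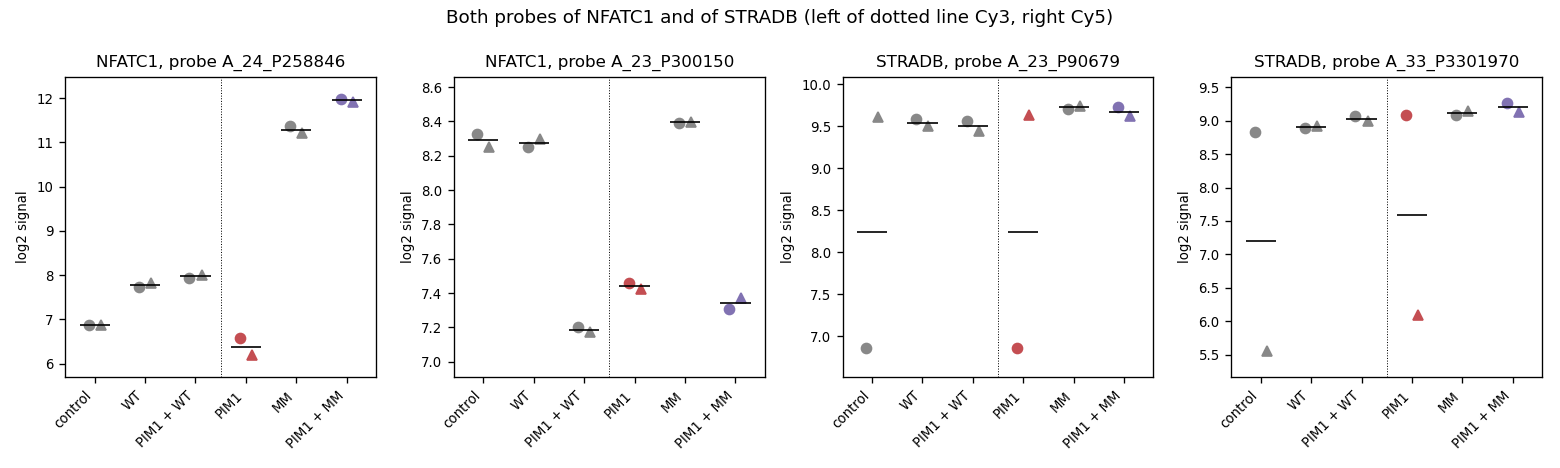
Log2 signal of each of the 2 probes of NFATC1 and of STRADB in all 12 samples, with circles for slide 1, triangles for slide 2, bars for group means, and Cy3 groups left of the dotted line. The first NFATC1 probe reached 11.98 and 11.92 in PIM1 + MM and the second did not separate PIM1 + MM from PIM1. Each STRADB probe was low on a single control/PIM1 array, in both of its channels.

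The PIM1 transcript itself did not separate the groups. Its single probe read 10.32 and 10.08 in PIM1, 10.21 and 10.36 in PIM1 + MM, and 10.05 and 9.85 in control. The difference between PIM1 + MM and PIM1 was 0.08 ± 0.10 (SE, limma adjusted p = 0.623), -0.11 within slide 1 and 0.28 within slide 2. This probe therefore does not check the overexpression that the labels name, and control was read in the other dye. The study reports a separate check of PIM1 and/or NFATC1 overexpression by qPCR on the array samples.

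STRADB, which encodes a pseudokinase that helps to activate the kinase LKB1, was called at 1.52 ± 0.09 (SE, limma adjusted p = 0.000157), and its spots show what this value rests on. Probe A_23_P90679 read 6.86 in both channels of the slide 1 control/PIM1 array but 9.61 (control) and 9.63 (PIM1) on slide 2, against 9.73 and 9.62 in PIM1 + MM. Probe A_33_P3301970 did the reverse, with 8.83 and 9.08 on slide 1 and 5.56 and 6.10 on slide 2, against 9.26 and 9.13 in PIM1 + MM. The median of the pair was thus low in all 4 samples, although 1 probe on each array was close to the level of the other groups. Tested probe by probe, neither differed (limma adjusted p = 0.338 and 0.343). STRADB was also the only gene called between WT and control (0.00393% of genes; 1.51 ± 0.09, SE), which rests on the same spots.

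Small noncoding RNAs formed the largest named group among the calls. These RNAs, mostly made by RNA polymerase III or cut from introns, work in splicing, rRNA processing and transcription control, and most carry no poly(A) tail. Of the 34 tested, 17 passed the adjusted p upwards (50%, against 5.2% of all genes) and 1 downwards, and 6 were called counting SNAR-A3, which the list does not hold. The median difference over the list was 0.33 against -0.01 over all genes. The list's summed linear signal went the other way, at 69660 and 72620 in PIM1 + MM against 81770 and 80400 in PIM1. A linear sum weighs bright members most, and RN7SL1, among the brightest of the list, had a difference of -0.68. The sum therefore says little about the other members. All 6 called RNAs were higher in both PIM1 + MM samples than in both PIM1 samples, as 22.2% of all genes were. They were named as called genes whose groups did not overlap, so this follows from the choice and is not further evidence. None of the 6 was called with only the 4 samples compared in the fit (limma adjusted p 0.0611 to 0.152) or after median centring.

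RN7SK, which holds the elongation factor P-TEFb inactive, read 12.80 and 12.85 in PIM1 + MM and 11.79 and 11.67 in PIM1. The groups did not overlap, and the difference was 1.097 ± 0.09 (SE, limma adjusted p = 0.000577), with 1.01 and 1.18 within the slides. RMRP, the RNA of a ribonuclease that cuts precursor rRNA, read 9.68 in both PIM1 + MM samples and 8.71 and 8.63 in PIM1. Its difference was 1.02 ± 0.05 (SE, limma adjusted p = 8.8e-05), and 0.977 without PIM1 replicate 2, under the fold threshold.

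Among the small nucleolar RNAs, SNORA73A, also known as U17, read 8.69 and 8.79 against 7.37 and 7.36 in PIM1. Its difference of 1.38 ± 0.06 (SE, limma adjusted p = 1.37e-05) was the highest of the list. SNORD3B-1, a copy of U3, which acts in the first cuts of precursor rRNA, read 13.87 and 13.96 against 12.96 and 12.79 (1.04 ± 0.09, SE, limma adjusted p = 0.000694). These are medians of 2 probes far apart in signal. Probe A_33_P3226542 read 11.03 and 11.18 in PIM1 + MM, and A_33_P3252333 read 16.71 and 16.74. Tested singly, the first differed by 0.898 and was not called, and the second differed by 1.18 and was called. U3 has near-identical copies, so its probes cannot be assigned to 1 gene with certainty. SNORA28, which guides pseudouridylation, read 7.59 and 7.70 against 6.67 and 6.51 in PIM1, where it was not well above background. Its signal rose at least 2.05-fold (limma adjusted p = 0.000577). SNAR-A3, 1 of several near-identical primate RNAs, read 16.95 and 16.93 against 15.91 and 15.65 (1.16 ± 0.09, SE, limma adjusted p = 0.000577).

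The list did not move as 1 block. RN7SL1, the RNA of the signal recognition particle, was lower in PIM1 + MM, at 15.25 and 15.31 against 15.96 and 15.97 (-0.68, limma adjusted p = 0.00123). The small Cajal body RNA SCARNA12 rose by 0.81 and the minor spliceosome RNA RNU12 by 0.52 on the log2 scale. Without PIM1 replicate 2, 13 members passed upwards but only 2 of the list were called in place of 5, and without PIM1 + MM replicate 2 the numbers were 13 and 3.

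Replication-dependent histone genes, whose mRNAs end in a stem-loop instead of a poly(A) tail and are normally made in S phase, were the other group with many increases. Of 65 tested, 25 passed upwards (38.5%, against 5.2% of all genes) and 3 downwards, with a median difference of 0.22. H3C15, a gene for histone H3, was called. It read 11.93 and 12.01 in PIM1 + MM and 10.31 and 10.30 in PIM1, a difference of 1.67 ± 0.07 (SE, limma adjusted p = 1.37e-05). The 2 groups lay far apart relative to their spread, with 1.62 and 1.71 within the slides. H4C11, a histone H4 gene, read 11.47 and 11.52 against 10.46 and 10.55 (0.99 ± 0.08, SE, limma adjusted p = 0.000574). Other members that rose were H2AC20 (0.82), H4C3 (0.77), H4C2 (0.76), H3C7 (0.71) and H4C5 (0.64), while H2BC5, H2BC14 and H2BC13 fell by 0.29, 0.25 and 0.21. These genes are near-identical within a family, so probes may read several copies.

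Genes of S phase are given beside the histones. In the list of 34 DNA replication genes, 2 passed upwards (TK1 and CDT1, both 0.29) and 2 downwards (FEN1, -0.41, and LIG1, -0.38), with a median of -0.01. Both shares were 5.88%, close to the 5.2% and 7.16% of all genes. In the list of 33 genes for mitosis, 8 fell (24.2%) and 2 rose (6.06%). AURKA and AURKB, the mitotic kinases, fell by 0.41 and 0.45, and HMMR, a spindle protein, rose by 0.40. Without PIM1 replicate 1, 3 mitosis genes passed downwards, and without either PIM1 + MM sample 4.

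The level of these RNAs across all 6 groups puts the difference in context. With the 12-sample mean of each gene subtracted, the median over the small noncoding RNAs was -0.31 and -0.35 in PIM1, the lowest of all samples. It was -0.07 and -0.04 in PIM1 + MM, -0.06 and -0.08 in MM, 0.53 and 0.46 in control, and 0.22 and 0.20 in WT. For the histones the same medians were -0.15 and -0.19 in PIM1, 0.07 and 0.05 in PIM1 + MM, and 0.23 in both control samples. PIM1 therefore stood lowest among the Cy5 groups and control highest among the Cy3 groups, and these 2 groups were on the same arrays. Dye and group cannot be told apart across the Cy3 and Cy5 channels.

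WT minus control, the addition of wild-type NFATC1 in the other pool and dye, was set beside these values. It shares no sample with PIM1 + MM minus PIM1, but control and PIM1 share arrays. The median of the small noncoding RNAs was -0.25 there, with 4 lower and 0 higher by adjusted p. The median of the histones was -0.21, with 4 lower and 0 higher. Over all genes 52 passed the adjusted p in that comparison (0.204%), 20 higher (0.0785%) and 32 lower (0.126%). The difference between the 2 comparisons was tested gene by gene, and 72 genes were called (0.283%), 49 higher (0.192%) and 23 lower (0.0903%). RMRP was 1.02 higher after MM in PIM1 cells and fell by 0.55 after WT in control cells, a difference of 1.56 ± 0.08 (SE, limma adjusted p = 5.46e-05). For the small noncoding RNAs the difference passed the adjusted p in 20 of 34 members upwards and 1 downwards, and for the histones in 30 and 0, against 2.94% and 3.25% of all genes. The 2 steps differ in the pool, the form of NFATC1, the dye, the arrays of the transfected samples and the rise in NFATC1 signal. These cannot be told apart. On probe A_24_P258846 NFATC1 rose at least 41.9-fold after MM in the PIM1 line. After WT in the control line it rose by 0.90 on the log2 scale, which is a different scale. Mean log2 levels on this probe were 11.95 in PIM1 + MM and 11.29 in MM, both Cy5. They were 7.97 in PIM1 + WT and 7.77 in WT, both Cy3, so the level was similar in the 2 lines for each form of NFATC1.

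Among coding genes, TMEM65, which encodes a mitochondrial membrane protein, was called higher. It read 10.04 and 10.25 in PIM1 + MM and 9.10 and 9.07 in PIM1, and the groups did not overlap (1.06 ± 0.09, SE, limma adjusted p = 0.000649). With loess the difference was 0.958 and without PIM1 + MM replicate 2 it was 0.951, both under the fold threshold. UCP3, a mitochondrial carrier of the uncoupling protein family, read 10.81 and 11.11 against 9.95 and 9.18. Its difference of 1.40 ± 0.25 (SE, limma adjusted p = 0.0119) was 0.86 within slide 1 and 1.93 within slide 2, and its second control sample was dropped by the outlier flag and is missing from the fit. Without PIM1 + MM replicate 2 it did not pass (limma adjusted p = 0.0681).

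A pair of coding genes outside the first rows of the array were called lower. HAPLN2, a hyaluronan-linking protein of the extracellular matrix, read 7.21 and 7.37 in PIM1 + MM and 8.48 and 8.30 in PIM1. The groups did not overlap, which was part of the rule for naming it, as in 26.9% of all genes in that direction. The difference was -1.1 ± 0.11 (SE, limma adjusted p = 0.00123). PIM1 + WT cells read 7.17 and 7.35, while control, WT and MM samples lay between 9.71 and 10.23. RAB11B, a small GTPase of recycling endosomes, read 7.86 and 7.56 against 8.80 and 8.68, a difference of -1.03 ± 0.10 (SE, limma adjusted p = 0.00106). It was 9.34 in both PIM1 + WT samples. Its spot lies in row 35 of the array, just outside the rows with low signal described below, and without PIM1 replicate 1 or PIM1 + MM replicate 2 the difference was -0.96 or -0.88, under the fold threshold.

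The vesicle recycling list holds RAB11B and other genes of this route. Of its 21 members, RAB11B included, 10 passed downwards (47.6%, against 7.16% of all genes) and 3 upwards (14.3%, against 5.2%), with a median of -0.30. ARF1, a GTPase of Golgi coats, fell by 0.95, AP2A1, an adaptor of clathrin pits, by 0.67, STXBP2, which guides vesicle fusion, by 0.53, and RAB11A, the close relative of RAB11B, by 0.51. RAB4A, of fast recycling, rose by 0.51. All spots of ARF1 and RAB5A lay in the rows with low signal. RAB11B, ARF1, AP2A1 and STXBP2 are among 15 genes that the study discusses and chose on these samples, of which 10 fell and 0 rose here, so their direction is not independent evidence.

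Focal adhesion and actin genes, through which integrins pull on the cytoskeleton, were lower in part. Of 39 tested, 11 passed downwards (28.2%, against 7.16% of all genes) and 1, SRC (0.25), upwards (2.56%, against 5.2%), and the median was -0.17. ZYX, a zyxin of mature adhesions, read 12.83 and 12.79 in PIM1 + MM and 13.77 and 13.70 in PIM1. The groups were well apart and the difference was -0.93 ± 0.06 (SE, limma adjusted p = 0.000157), just under the fold threshold. TLN1 (talin, which activates integrins) fell by 0.74, MYL9 (a myosin light chain) by 0.75, ACTN4 (an actin crosslinker) by 0.64, CFL1 (which cuts actin filaments) by 0.58 and PTK2 (focal adhesion kinase) by 0.56. ZYX and TLN1 were also called in the difference from WT minus control, in which the list's median was -0.17, with 11 members lower and 0 higher. In WT minus control itself the list's median was 0.07 and 3 members rose.

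ITGA5, the fibronectin receptor subunit that the study followed, is also among the 15 genes that it discusses and chose on these samples. Its direction here and its PIM1 + WT level are therefore not independent evidence. It read 9.49 and 9.57 in PIM1 + MM and 9.99 and 9.77 in PIM1. The groups did not overlap, and the difference of -0.35 ± 0.09 (SE, limma adjusted p = 0.0327) was -0.50 within slide 1 and -0.20 within slide 2. PIM1 + WT, in the other dye, read 10.66 and 10.57. It did not pass without PIM1 replicate 1 (limma adjusted p = 0.129), without PIM1 + MM replicate 1 (0.108) or replicate 2 (0.0795), or without the slide 1 control/PIM1 array (0.08). Of the 25 integrin subunits tested, ITGA5, ITGA3 (-0.70) and ITGA2 (-0.59) fell (12% of the list, against 7.16% of all genes), 1 was higher (4%, against 5.2%) and 21 did not pass. The higher one, ITGAD, was not well above background in either group.

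Glycolysis and hypoxia genes fell in 11 of 28 cases (39.3%, against 7.16% of all genes) and rose in 2 (7.14%, against 5.2%), with a median of -0.21. Among the enzymes, PKM fell by 0.58, LDHA by 0.54, ENO1 by 0.41, TPI1 by 0.33 and GAPDH by 0.30. The hypoxia-induced P4HA1 and NDRG1 fell by 0.60 and 0.55, and ADM, also hypoxia-induced, rose by 0.26. Without PIM1 replicate 1, 5 of the genes passed downwards, and without PIM1 + MM replicate 2, 6. ACTB and GAPDH, which often serve as reference genes, were among those that fell (-0.41 and -0.30). In the loess and median centring settings the medians were -0.23 and -0.07 for this list and -0.18 and -0.02 for focal adhesion, and after median centring no member of either list passed.

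**Figure D2:**
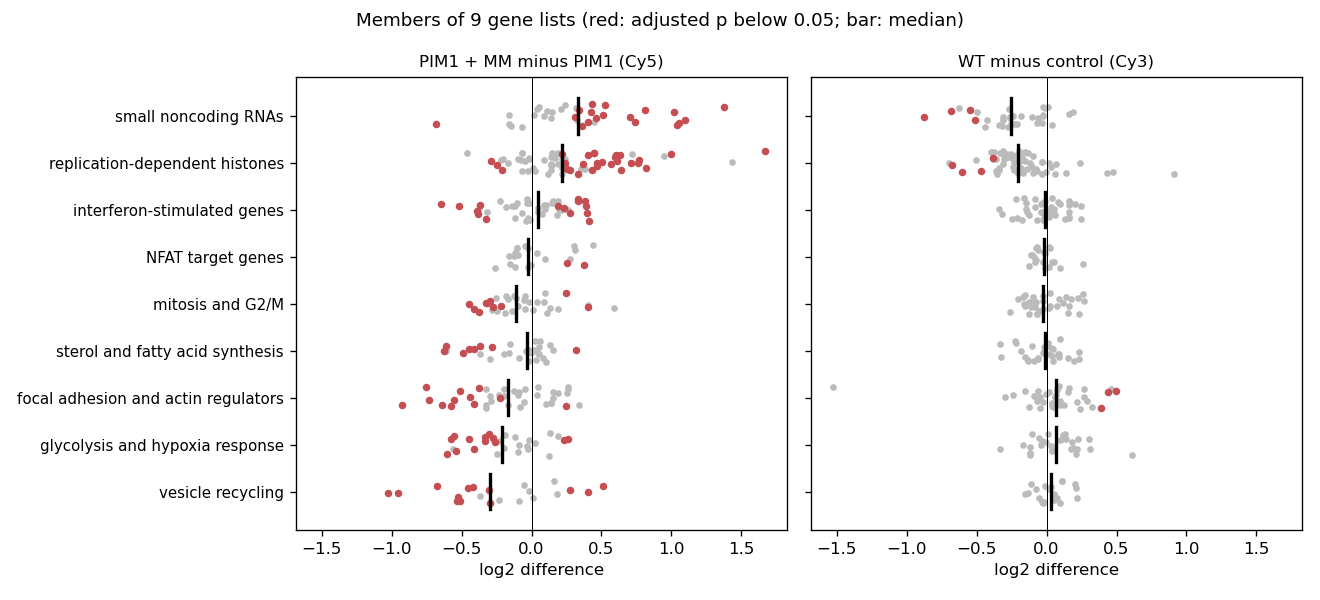
Log2 difference of the members of 9 gene lists for PIM1 + MM minus PIM1 (left) and WT minus control (right), with red points for an adjusted p below 0.05 and bars at list medians. The medians of small noncoding RNAs (0.33 and -0.25) and histones (0.22 and -0.21) lie on opposite sides of 0 in the 2 panels, and those of vesicle recycling (-0.30) and glycolysis (-0.21) lie below 0 in the left panel.

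Of 21 NFAT target genes tested, 2 passed upwards (9.52%, against 5.2% of all genes), EGR2 and OSCAR (0.26), 0 passed downwards (against 7.16%), and the median was -0.03. EGR2, an early response transcription factor, was not well above background in PIM1 and its signal was higher by at least 1.14-fold. RCAN1, an inhibitor of calcineurin that NFAT induces, read 10.56 and 10.67 in PIM1 + MM and 10.45 and 10.17 in PIM1, and 0.30 ± 0.10 (SE, limma adjusted p = 0.0768) did not pass. Among calcineurin and its partners, PPP3R1, the regulatory subunit, rose by 0.30. FKBP1A, the receptor of the drug FK506, fell by 0.87 on the median of its 5 probes, and the alternatives gave -0.996 to -0.0137, with -0.996 without PIM1 replicate 2.

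Stress, interferon and lipid genes moved in both directions. In the integrated stress response list 5 of 30 rose (16.7%, against 5.2% of all genes) and 2 fell (6.67%, near the 7.16% of all genes). CBS, of transsulfuration, rose by 0.76, SARS1, a tRNA synthetase, by 0.71 and PSPH, of serine synthesis, by 0.54. Of 18 endoplasmic reticulum chaperones 5 fell (27.8%), among them HYOU1 (-0.64) and HSP90B1 (-0.59), and 2 rose (11.1%), with HSPA5 at 0.37 (PIM1 replicate 1 missing). Among 13 cytosolic heat shock proteins 3 fell (23.1%) and 1 rose (7.69%). HSPA8 and BAG3 fell by 0.63 and 0.66 and HSP90AA1 rose by 0.46.

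Of 44 interferon-stimulated genes 9 rose (20.5%, against 5.2% of all genes) and 6 fell (13.6%, against 7.16%), with a median of 0.05. MX1, an antiviral GTPase, rose by 0.41, whereas DDX60 and OASL fell by 0.65 and 0.52. Without PIM1 + MM replicate 1, 3 rose, without replicate 2 of that group 2, and without PIM1 replicate 2, 5. Of 30 sterol and fatty acid genes 7 fell (23.3%), including ACLY (-0.63) and HMGCS1 (-0.61), and FADS2 rose by 0.32 (3.33%). Of 23 immediate early genes 5 fell (21.7%), with ZFP36 at -0.41 and FOSL1 at -0.30, and 1 rose (4.35%). Of 81 ribosomal protein genes 6 rose (7.41%) and 5 fell (6.17%), shares near those of all genes, with a median of 0.03.

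The cell type was checked against markers. Of 5 luminal epithelial markers, KRT18, KRT19, KRT8 and EPCAM were measured well above background, and the list's summed linear signal was 88360 and 75480 in PIM1 and 93390 and 86710 in PIM1 + MM. The summed signal of androgen receptor axis genes, all 4 of them well above background, was 1061 and 1097 in PIM1 and 1231 and 1247 in PIM1 + MM. Of 5 fibroblast markers 1, COL1A1, was well above background in either group, and it fell by 0.39. Of 4 leukocyte markers 2 were above it, and CD68 fell by 0.36. Of 4 endothelial markers 3 were above it in PIM1 and 4 in PIM1 + MM. The summed signal of the fibroblast, leukocyte and endothelial lists was lower in both PIM1 + MM samples than in both PIM1 samples (682 and 739 against 844 and 818, 1350 and 1322 against 1612 and 1665, 728 and 673 against 797 and 788). Their part in the results was not tested.

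Promoters were searched for motifs in 300 bases from 250 before to 50 after the RefSeq start (GRCh38.p14), on both strands. Of 14640 promoters of genes tested, 21.5% held the NFAT core GGAAAA. The share was 21.0% of the 799 promoters of genes that rose by adjusted p and 18.4% of the 1285 of genes that fell. The AP-1 motif TGANTCA was in 4.63% and 4.75% of these against 5.72% of all. Among 60 histone promoters 27 held the NFAT core and 26.7% the NF-kB motif, against 21.5% and 68.4% of all. A match is only a description of the letters in this window. The interferon-stimulated response element was in 2.25% of promoters of genes that rose and 3.11% of those that fell, against 3.11% of all, and the ATF4 motif TGATGNAA in 2.5% and 1.4% against 2.38%.

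The 250 bases before the start of 3 called coding genes are shown as examples, picked without a rule. They are written 5′ to 3′ on the strand of the gene, with matches to the NFAT core on either strand in capitals. H3C15 lies at chr1:149852358-149852607 (plus strand) and holds 3 matches, HAPLN2 at chr1:156619165-156619414 (plus strand) with 2, and RAB11B at chr19:8390110-8390359 (plus strand) with 0.

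H3C15: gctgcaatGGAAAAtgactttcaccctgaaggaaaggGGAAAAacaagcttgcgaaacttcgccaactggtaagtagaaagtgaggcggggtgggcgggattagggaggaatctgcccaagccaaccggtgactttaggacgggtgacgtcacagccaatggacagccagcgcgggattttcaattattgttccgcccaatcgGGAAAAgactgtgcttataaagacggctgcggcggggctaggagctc

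HAPLN2: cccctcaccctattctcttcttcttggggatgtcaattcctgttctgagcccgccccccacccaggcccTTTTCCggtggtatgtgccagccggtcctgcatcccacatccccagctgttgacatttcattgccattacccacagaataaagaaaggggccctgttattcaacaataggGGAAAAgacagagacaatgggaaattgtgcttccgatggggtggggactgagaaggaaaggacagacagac

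RAB11B: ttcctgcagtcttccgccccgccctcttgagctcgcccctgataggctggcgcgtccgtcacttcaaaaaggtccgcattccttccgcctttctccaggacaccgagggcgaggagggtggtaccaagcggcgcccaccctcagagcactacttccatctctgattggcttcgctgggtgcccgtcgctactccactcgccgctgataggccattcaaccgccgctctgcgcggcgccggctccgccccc

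The first 33 rows of spots were checked because their signal was low in 1 sample. In PIM1 + MM replicate 2 the median raw signal was 161.5 in these rows and 195 elsewhere, a ratio of 0.828, against 0.904 in replicate 1 and 0.987 and 0.970 in PIM1. The 1050 genes with all spots there (4.12%) had a median difference of -0.14, against -0.01 for the other genes. Within slide 1 their median was -0.04, close to -0.03 for the others, and within slide 2 it was -0.21 against 0.01.

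Of these genes 2 were called, both lower. TRIM8, a ubiquitin ligase, read 11.17 and 10.07 in PIM1 + MM and 11.96 and 11.76 in PIM1 (-1.24 ± 0.28, SE, limma adjusted p = 0.0217). TVP23C, a Golgi membrane protein, read 9.15 and 8.07 against 9.69 and 9.63 (-1.06 ± 0.26, SE, limma adjusted p = 0.0332). With those rows left out of PIM1 + MM replicate 2 the differences were -0.69 and -0.51, and neither was called. The 3 genes with the largest differences there, DNAJA1, HNRNPM and ATP6V1D, were not called. DNAJA1, a cochaperone, read 11.93 and 8.45 in PIM1 + MM and 11.87 and 11.73 in PIM1, and with the rows left out the difference turned from -1.61 to 0.13.

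The control/PIM1 array on slide 1 stood apart in a different way. Of 31258 probes measured in all 4 channels of the control/PIM1 arrays, 265 differed by over 1 log2 unit between the slides in both channels in the same direction, and 238 of them were lower on slide 1. The same count was 22 for the WT/MM arrays and 12 for the PIM1 + WT/PIM1 + MM arrays. FKBP8, a mitochondrial immunophilin that the study discusses, read 7.22 and 12.01 in PIM1 and 11.47 and 11.46 in PIM1 + MM, and did not pass (limma adjusted p = 0.456). Without PIM1 replicate 1, 19 genes were called, 14 of them among the 19 above, and RAB11B, TRIM8, TVP23C and 2 transcripts without a symbol were lost. Without both channels of that array 31 were called, including the same 14. H3C15, RN7SK, RMRP, SNORA73A, HAPLN2 and TMEM65 were called in both settings.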

How the data were processed

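Gene expression was measured on 6 Agilent arrays. The authors deposited scanner files with raw intensity (median and background signals, extracted with Feature Extraction 11.0.1.1) and a table of log2 values, which were within 0.0844 of the quantile-normalized log2 median signal. From the raw median signal, outlier spots were dropped, spots of a probe averaged, and probes kept that exceeded the 90th percentile of 153 negative controls in at least 2 of 12 channels (31486 of 34127 probes). Values were log2 transformed, quantile normalized, and the median taken per RefSeq symbol (26377 probes matched). No background was subtracted.

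limma 3.58.1 (R 4.3.3) fitted 1 mean per group over 12 samples (6 residual degrees of freedom), with two-sided, Benjamini-Hochberg adjusted p-values. The fit was tested on simulated data. Samples were chosen by their labels, and gene lists and their members with earlier results of these data known. Named were PIM1, NFATC1, ITGA5, RCAN1, called genes (up to 12 per direction) whose groups did not overlap, called or bright list members, and 3 genes of rows 1 to 33. The labels name no batch, and slide was read from the slot number in the scan names. Deviations of first samples from their group means correlated most within an array. There r was 0.834 (control and PIM1), 0.499 (WT and MM) and 0.345 (PIM1 + WT and PIM1 + MM). Between arrays of the same slide r was at most 0.172.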

Additional observations from a re-analysis of the deposited data

Results flagged for a closer look

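The difference between PIM1 + MM minus PIM1 and WT minus control was tested gene by gene in limma, and 72 genes were called. Of these, the genes with a symbol that were called in PIM1 + MM minus PIM1 itself are given with that difference on the log2 scale, positive where the step in the PIM1 line was the larger one. NFATC1 had 2.29 on the median of its probes, 1 of them not well above background in PIM1. The small noncoding RNAs had 1.61 (SNORA73A), 1.56 (RMRP), 1.48 (SNORD3B-1), 1.40 (SNAR-A3) and 1.36 (RN7SK). SNORA28 had 1.93, but on the PIM1 arrays its signal did not stand clear of background, so that this is not a measured size. H3C15 had 1.92, UCP3 1.71 and TMEM65 1.44. HAPLN2 had -1.36 and RAB11B -1.12. STRADB, called in both steps, had 0.01 (limma adjusted p = 0.978).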

How the results depend on the processing

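Calls depended on the scaling and on single libraries. For PIM1 + MM minus PIM1, 11 genes were called in place of 19 with loess within arrays, 1 with median centring, 221 with the processed signal (13 shared with the 19), 2 with only the 4 samples compared, and 31 without the control/PIM1 array of slide 1. Leaving out 1 sample gave 14 to 139, with 139 without PIM1 + MM replicate 1 (105 of them in rows 1 to 33) and 131 without PIM1 replicate 2. By adjusted p, 1 gene passed in place of 3149 with median centring and 2 with only the 4 samples, and 1506 to 3117 with 1 sample left out. The median SE was 0.0875, against 0.237 with median centring and 0.107 with the 4 samples alone, and the cause was not tested. For WT minus control, 0 genes were called in place of 1 with median centring, with the filter in all 12 channels and with only the 4 samples, 8 with the processed signal, 11 without the control/PIM1 array, and 1 to 24 with 1 sample left out. For the difference between these, 0 were called in place of 72 with median centring, 224 with the processed signal, and 68 to 205 with 1 sample left out. At an unadjusted p below 0.05, limma passed 649 genes for PIM1 + MM minus PIM1 with median centring. NFATC1 read -0.0836 with the filter in all 12 channels, which keeps only its second probe. PIM1 read -0.0809 with the processed signal and -0.0349 to 0.204 with 1 sample left out. With rows 1 to 33 left out DNAJA1 read 0.130 and ATP6V1D 0.456. With 1 sample left out they ranged from -3.35 to 0.130 and from -2.99 to 0.456, the positive values without PIM1 + MM replicate 2 and the lowest without replicate 1. Labels pair no samples, so slide served as the replicate block: 21 genes were called with it in place of 19, and for WT minus control 2 in place of 1. Testing each probe on its own was added after seeing the data and called 28 genes, 18 of them among the 19. Signal over background limits dim genes such as SNORA28, and 2 samples per group limit all.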
